A study of Mus musculus with 34 samples.

Results

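Alveolar fibroblasts and lipofibroblasts are the mesenchymal cells of the walls between air sacs, and 10 genes known for them were followed across all groups of this series: Tcf21, Pdgfra, Col13a1, Npnt, Fgf10, Wnt2, Limch1, Pdgfrb, Thy1 and Inmt. The rule that chose them uses names and no measured value, and each was read from the probe of the array with the highest mean lung signal among those whose RefSeq accession belongs to the gene. All 10 passed the filter on dim probes, out of 17158 named genes and 29316 units tested (a unit is a named gene, or an accession without a name here). RNA from sections of whole lung was measured on 34 arrays, each from its own mouse, 28 days after 40 µl with a carbon nanotube material had been instilled once into the trachea, in a study whose title speaks of ranking nanomaterials by the lung pathways they disturb. The mice were female C57BL/6 of 5 to 7 weeks, with no allele or transgene named. The groups were NRCWE-043 at 18 µg (5 mice) and 54 µg (5), NRCWE-044 at 18 µg (6) and 54 µg (5), NRCWE-045 at 18 µg (3) and 54 µg (5), and 5 controls, whose treatment the labels give only as control, so that what they were given is not stated. The title of control replicate 3 names NRCWE-043 with a dose of 0 µg, while its treatment label is control like that of the other 4. The materials are known here by these codes only.

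Tcf21 encodes a transcription factor that marks the lipofibroblast lineage, and lipofibroblasts hold lipid droplets beside the alveolar type 2 cells that make surfactant. PDGF receptors on these cells receive growth factors from neighbouring cells, and FGF10 and Wnt ligands made by lung mesenchyme act on the epithelium. Alveolar fibroblasts are also a source of the matrix of the alveolar wall, and their number and state are known to change in lung injury. In RNA from whole lung, fewer cells of a type and less RNA per cell cannot be told apart.

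Values are log2 ratios of the lung RNA (Cy5) to a reference RNA pooled from 11 mouse cell lines (Cy3), so that a difference of 1 between lungs is a 2-fold difference and the level of 1 gene cannot be set against that of another. The lung RNA held the markers of its tissue: the 9 alveolar type 2 genes averaged between 4.90 and 5.64 above the reference on every array, and the 7 alveolar type 1 genes between 4.33 and 5.00. Between 50.8 and 68.5% of probes were well above background in Cy5. Controls were on 4 of the 6 slides, and slide and day of scanning coincide. Genes known from other organs differed between arrays, and the source of their signal was not tested. The mean of 6 liver genes ran from -0.02 to 0.82 in all but 4 lungs. Those had 1.30 and 5.04 (NRCWE-045 at 18 µg), 1.58 (NRCWE-044 at 54 µg) and 2.40 (NRCWE-045 at 54 µg). The mean of 8 cardiac genes ran from 0.77 to 4.56 over all lungs and from 1.81 to 3.36 in control lungs. The mean of 7 fat cell genes ran from 0.58 to 4.79 in exposed lungs and from 0.80 to 2.97 in control lungs. The part of these signals in the results was not tested. Values without the 2 arrays highest in liver, fat or cardiac genes (NRCWE-044 54 µg replicate 1 and NRCWE-045 18 µg replicate 2) are given where a call changes.

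The 250 bases before the start of transcription are printed for the member with the lowest values against the controls, Tcf21, and for the 3 members of the pairs with the highest correlations across arrays, Pdgfra with Fgf10 and Pdgfra with Col13a1. The sequences are RefSeq's, on build GRCm38.p6, 5′ to 3′ on the strand of the gene, for Tcf21 at chr10:22820144-22820393 (minus strand), Pdgfra at chr5:75152001-75152250 (plus), Col13a1 at chr10:61979109-61979358 (minus) and Fgf10 at chr13:118714449-118714698 (plus). Capitals mark matches, on either strand, to any of the 6 motifs searched.
Tcf21: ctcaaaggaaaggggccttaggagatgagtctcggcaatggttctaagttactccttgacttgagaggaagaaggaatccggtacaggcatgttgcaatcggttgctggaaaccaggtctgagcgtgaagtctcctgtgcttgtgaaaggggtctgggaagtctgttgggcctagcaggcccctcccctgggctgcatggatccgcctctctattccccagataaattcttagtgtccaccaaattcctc
Pdgfra: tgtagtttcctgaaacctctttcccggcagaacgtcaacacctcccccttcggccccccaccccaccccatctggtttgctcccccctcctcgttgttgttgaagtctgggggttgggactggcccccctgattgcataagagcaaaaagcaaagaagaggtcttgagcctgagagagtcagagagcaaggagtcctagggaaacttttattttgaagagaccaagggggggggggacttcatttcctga
Col13a1: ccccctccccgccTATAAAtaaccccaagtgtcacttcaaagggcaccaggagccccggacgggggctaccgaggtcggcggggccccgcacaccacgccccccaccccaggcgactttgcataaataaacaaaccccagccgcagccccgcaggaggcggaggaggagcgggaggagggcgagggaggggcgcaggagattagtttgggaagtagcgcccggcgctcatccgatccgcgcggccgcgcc
Fgf10: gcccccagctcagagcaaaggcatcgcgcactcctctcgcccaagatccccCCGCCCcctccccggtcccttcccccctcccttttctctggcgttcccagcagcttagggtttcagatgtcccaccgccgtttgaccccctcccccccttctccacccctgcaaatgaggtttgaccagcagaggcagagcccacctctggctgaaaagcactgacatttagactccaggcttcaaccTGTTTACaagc
The motifs and their shares among 32851 promoter windows of the same length were TATAAA (12.4%), GGGCGG (32.7%), CACGTG (6.02%), CAGCTG, an E-box of the kind bound by factors of the Tcf21 family (13%), TGTTTAC, a forkhead motif (3.17%), and CCAAT (33.8%). None of these 6 strings lies in the Tcf21 or Pdgfra window. The Col13a1 window holds TATAAA at its distal end, 237 bases before the start, and the Fgf10 window holds the reverse complement of GGGCGG 199 bases before the start and TGTTTAC 11 bases before it.

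No gene passed the test in any of the 6 exposed groups against the controls, members included (limma, Benjamini-Hochberg over 29316 units at 0.05, 0% of units called in each). By limma, 1274, 919 and 2321 units had an unadjusted p under 0.05 at 18 µg of the 3 materials in the order of their codes, and 1650, 1713 and 1150 at 54 µg. Where no unit differs, a share of about 0.05 of the 29316 would be expected there. With slide as a block, 1 unit was called at 54 µg of NRCWE-044 and 1 at 54 µg of NRCWE-045, neither of them a member. Leaving out replicate 4 of the group brought 3 calls at 54 µg of NRCWE-043 and 13 at 54 µg of NRCWE-044, and leaving out replicate 1, 2 or 3 brought 86, 1 or 110 at 18 µg of NRCWE-045, again with no member among them. The 6 comparisons share the same 5 controls, so that a control lung that is high or low for a gene moves all 6 values of that gene together.

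Tcf21 was the member with the largest differences: its mean lay below the control mean in every exposed group. In NRCWE-043 lungs its log2 ratio was 4.14, 3.97, 3.23, 3.78 and 3.77 at 18 µg and 3.94, 2.91, 3.48, 3.74 and 3.32 at 54 µg. In NRCWE-044 lungs it was 3.47 at the lowest, 4.15 at the median and 4.42 at the highest at 18 µg, and 3.96, 4.00, 4.13, 3.71 and 4.49 at 54 µg. In NRCWE-045 lungs it was 4.02, 3.63 and 3.28 at 18 µg and 4.11, 3.46, 4.19, 3.00 and 4.48 at 54 µg, against 4.45, 4.40, 4.16, 4.85 and 4.64 in the control lungs. All 10 NRCWE-043 lungs and all 3 lungs at 18 µg of NRCWE-045 were below the lowest control, while the other 3 groups overlapped the controls. At 18 µg, 12 of 14 exposed lungs lay below every control, and at 54 µg 12 of 15. The lowest control, at 4.16, is replicate 3, the lung whose title names NRCWE-043 at 0 µg, and the lowest of the other 4 was at 4.40.

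The log2 change of Tcf21 was -0.72 (SE 0.23) at 18 µg and -1.02 (SE 0.23) at 54 µg of NRCWE-043, the second of which is 0.492 of the control level. It was -0.46 (SE 0.22) and -0.44 (SE 0.23) for NRCWE-044 and -0.86 (SE 0.27) and -0.65 (SE 0.23) for NRCWE-045, in the same dose order. None of these passed the test over all units, and the smallest adjusted p was 0.299 at 18 µg of NRCWE-045 and 0.338 at 54 µg of NRCWE-043. The 95% interval of the change at 54 µg of NRCWE-043 ran from -1.49 to -0.55, before any adjustment for the number of units. Without control replicate 3 the changes at 18 and 54 µg were -0.81 and -1.11 for NRCWE-043, -0.54 and -0.53 for NRCWE-044, and -0.94 and -0.74 for NRCWE-045, with a smallest adjusted p of 0.189. A group lying wholly below the controls was uncommon on these arrays: 0.501% of units did so at 54 µg of NRCWE-043, 0.256% at 18 µg of NRCWE-043 and 2.07% at 18 µg of NRCWE-045, where the group has 3 lungs. At 54 µg of NRCWE-045, where no member did, 0.44% of units did.

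Within slides, Tcf21 was below the controls of the same slide on 3 of 3 slides for each dose of NRCWE-043, with differences of -1.07 to -0.29 at 18 µg and -1.36 to -0.49 at 54 µg. It was below them on 2 of 2 and 4 of 4 slides for 18 and 54 µg of NRCWE-045 and on 4 of 4 for 54 µg of NRCWE-044. The exception was 18 µg of NRCWE-044, with 2 of 3 slides below and a range of -0.81 to 0.26. Slide 1 held 2 controls and each other slide with controls held 1. All groups on a slide share them, so that these counts are not independent. With slide as a block the changes at 18 and 54 µg were -0.60 and -0.85 for NRCWE-043, -0.32 and -0.33 for NRCWE-044, and -0.60 and -0.54 for NRCWE-045, with a smallest adjusted p of 0.144. The reference RNA gave little Tcf21 signal (well above background in Cy3 on 10 of 34 arrays, in Cy5 on 34), and in the Cy5 signal alone the 6 changes were -0.37, -0.89, -0.38, -0.38, -0.68 and -0.46 in the same order. With the scanner software's processed signals the change at 18 µg of NRCWE-044 turned to 0.10 and that at 54 µg was -0.14. Endothelial genes moved with Tcf21: the mean of 11 of them lay between 4.06 and 4.86 in exposed lungs, with group means of 4.53 to 4.71, against a mean of 4.81 ± 0.12 (SD, n = 5) and a highest value of 4.91 in control lungs, and their part in the Tcf21 values was not tested.

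**Figure D1:**
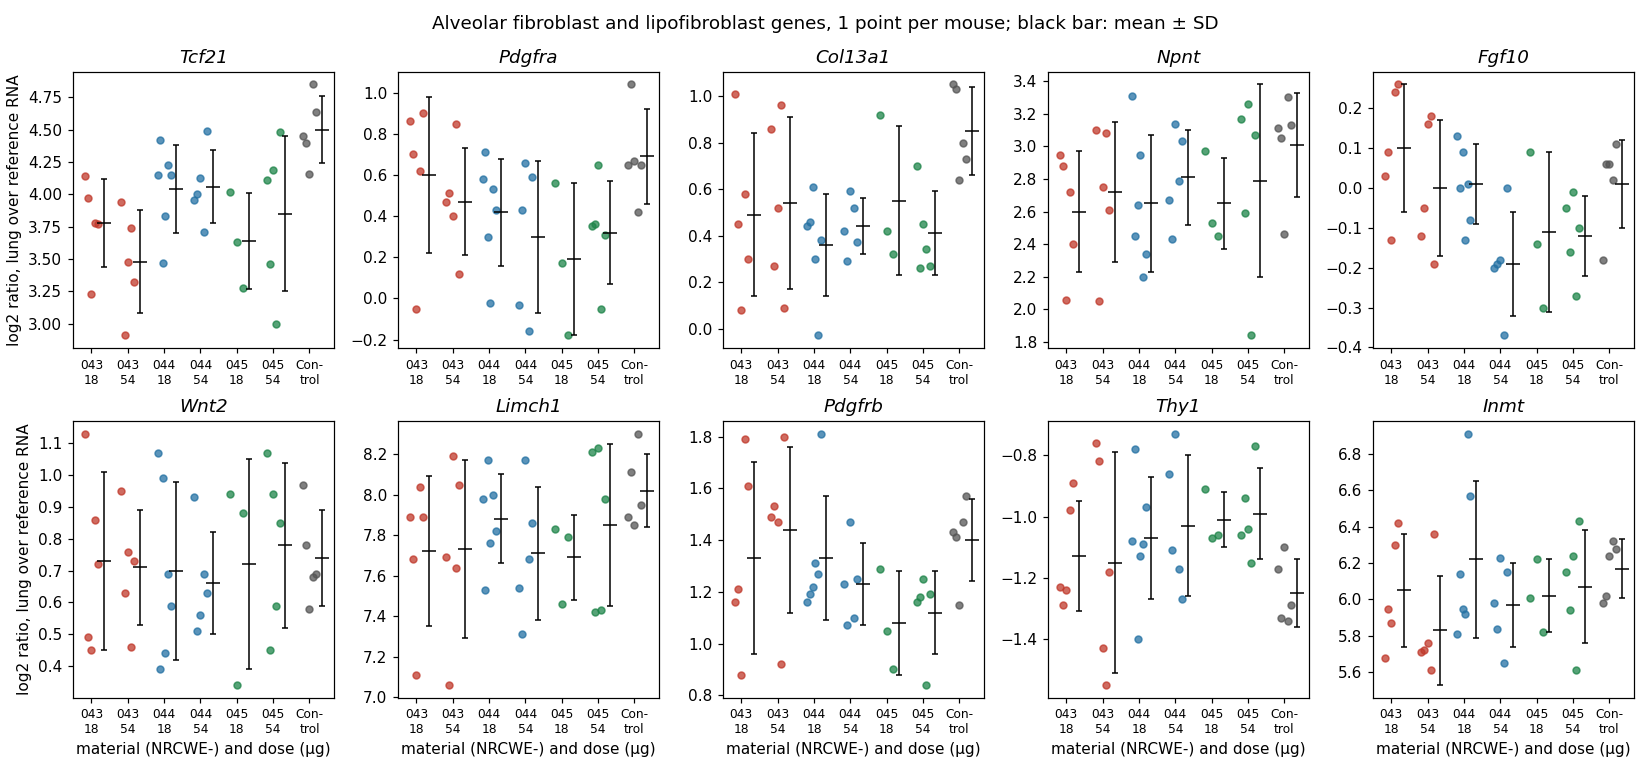
Log2 ratio of each of the 10 genes on every array, by material and dose (18 or 54 µg, controls at the right), with 1 point per mouse and the mean ± SD beside the points. For Tcf21 the NRCWE-043 lungs, at 2.91 to 4.14, all lie below the lowest control at 4.16, while for Wnt2 and Inmt the exposed points surround the controls.

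Col13a1, a collagen anchored in the cell membrane and a marker by which alveolar fibroblasts are told from those of the adventitia, also had its highest mean in the controls. Its log2 ratio was 1.01, 0.45, 0.08, 0.58 and 0.30 at 18 µg and 0.86, 0.27, 0.52, 0.96 and 0.09 at 54 µg of NRCWE-043. In NRCWE-044 lungs it was -0.03 at the lowest, 0.41 at the median and 0.61 at the highest at 18 µg, and 0.42, 0.29, 0.59, 0.52 and 0.37 at 54 µg. In NRCWE-045 lungs it was 0.92, 0.42 and 0.32 at 18 µg and 0.70, 0.26, 0.45, 0.34 and 0.27 at 54 µg, against 1.05, 1.03, 0.64, 0.80 and 0.73 in the control lungs. Both NRCWE-044 groups lay wholly below the controls, as 0.252% of units did at 18 µg and 0.604% at 54 µg, and the other 4 groups overlapped them. The lowest control, at 0.64, was again replicate 3, and the lowest of the other 4 was at 0.73.

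The log2 changes of Col13a1 at 18 and 54 µg were -0.36 (SE 0.16) and -0.31 (SE 0.16) for NRCWE-043, -0.49 (SE 0.15) and -0.41 (SE 0.16) for NRCWE-044, and -0.30 (SE 0.18) and -0.44 (SE 0.16) for NRCWE-045. None passed the test, with a smallest adjusted p of 0.715, and without control replicate 3 the 6 changes ran from -0.54 to -0.35. On every slide that held controls, 1 or 2 each, the exposed groups averaged below them, with differences of -0.63 to -0.03. The size of these values rests on a weak reference signal, since Col13a1 was well above background in Cy3 on 4 of 34 arrays and in Cy5 on 32. The 6 changes were between -1.63 and -1.12 with the scanner software's processed signals, but between -0.30 and 0.04 in the Cy5 signal alone, where that at 54 µg of NRCWE-043 was 0.04.

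Pdgfra is the receptor for PDGF-A and the gene most used to sort these cells. Its log2 ratio was 0.86, 0.70, -0.05, 0.62 and 0.90 at 18 µg and 0.47, 0.51, 0.40, 0.85 and 0.12 at 54 µg of NRCWE-043. In NRCWE-044 lungs it was -0.02 at the lowest, 0.48 at the median and 0.71 at the highest at 18 µg, and -0.03, 0.43, 0.66, -0.16 and 0.59 at 54 µg. In NRCWE-045 lungs it was 0.56, 0.17 and -0.18 at 18 µg and 0.35, 0.36, 0.65, -0.05 and 0.31 at 54 µg, against 0.65, 1.04, 0.67, 0.42 and 0.65 in the control lungs. The exposed means were the lower ones, but every group overlapped the controls. The log2 changes at 18 and 54 µg were -0.08 (SE 0.18) and -0.22 (SE 0.18) for NRCWE-043, -0.26 (SE 0.17) and -0.39 (SE 0.18) for NRCWE-044, and -0.50 (SE 0.21) and -0.36 (SE 0.18) for NRCWE-045, and no adjusted p was below 0.519. Pdgfra was well above background in both channels on all 34 arrays, and the scanner software's processed signals and the Cy5 signal alone gave values of -0.56 to -0.02.

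Pdgfrb is the PDGF receptor that also marks pericytes, the mural cells of capillaries. As for Pdgfra, its lowest mean was at 18 µg of NRCWE-045, but its highest was at 54 µg of NRCWE-043 and not in the controls. Its means at 18 and 54 µg were 1.33 ± 0.37 and 1.44 ± 0.32 in NRCWE-043 lungs, 1.33 ± 0.24 and 1.23 ± 0.16 in NRCWE-044 lungs, and 1.08 ± 0.20 and 1.12 ± 0.16 in NRCWE-045 lungs, against 1.40 ± 0.16 in control lungs (SD, n = 5, 5, 6, 5, 3, 5 and 5). Its changes ran from -0.32 (SE 0.17) at 18 µg of NRCWE-045 to 0.04 (SE 0.15) at 54 µg of NRCWE-043, with no adjusted p below 0.692. Of the 10 other PDGF pathway genes, 0 passed the test in either direction in any comparison with the controls. The ligand Pdgfc had a log2 change of 0.30 (SE 0.12) over the 3 materials at 18 µg and 0.41 (SE 0.12) at 54 µg, and the ligand Pdgfd -0.38 (SE 0.17) and -0.38 (SE 0.16). The median over the 10 genes was -0.04 at 18 µg and -0.08 at 54 µg.

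Among the secreted signals, Fgf10, the mesenchymal growth factor that acts on the epithelium through FGFR2, stayed within 0.20 of the controls in every exposed group. Its means at 18 and 54 µg were 0.10 ± 0.16 and 0.00 ± 0.17 in NRCWE-043 lungs, 0.01 ± 0.10 and -0.19 ± 0.13 in NRCWE-044 lungs, and -0.11 ± 0.20 and -0.12 ± 0.10 in NRCWE-045 lungs, against 0.01 ± 0.11 in control lungs (SD, n as for Pdgfrb). The value farthest from 0 was -0.20 (SE 0.09, adjusted p 0.799) at 54 µg of NRCWE-044, where 4 of 5 lungs lay below every control. Of 11 other FGF10 pathway genes tested, 0 passed, and the receptor Fgfr2 had changes of -0.12 (SE 0.07) over the 3 materials at 18 µg and -0.10 (SE 0.07) at 54 µg. Their median was -0.02 at 18 µg and -0.10 at 54 µg.

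Wnt2, a Wnt ligand of lung mesenchyme, was the member whose group means lay closest together, with 0.12 between the highest and the lowest of the 7. Its means at 18 and 54 µg were 0.73 ± 0.28 and 0.71 ± 0.18 in NRCWE-043 lungs, 0.70 ± 0.28 and 0.66 ± 0.16 in NRCWE-044 lungs, and 0.72 ± 0.33 and 0.78 ± 0.26 in NRCWE-045 lungs, against 0.74 ± 0.15 in control lungs (SD, n as for Pdgfrb). The 95% intervals of its 6 changes all lay between -0.37 and 0.34. Its probe was dim, with a mean Cy5 intensity of 144, and above background in Cy3 on 0 of 34 arrays, which limits what it could show. Of 26 other Wnt pathway genes tested, 0 passed. The frizzled receptor Fzd2 had -0.08 (SE 0.11) over the 3 materials at 18 µg and -0.23 (SE 0.11) at 54 µg, and Lgr6, a receptor for R-spondins, 0.22 (SE 0.08) and 0.23 (SE 0.08).

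Npnt encodes nephronectin, a matrix protein that binds the integrin with the α8 chain, and its mean was highest in the controls. Its means at 18 and 54 µg were 2.60 ± 0.37 and 2.72 ± 0.43 in NRCWE-043 lungs, 2.65 ± 0.42 and 2.81 ± 0.29 in NRCWE-044 lungs, and 2.65 ± 0.28 and 2.79 ± 0.59 in NRCWE-045 lungs, against 3.01 ± 0.32 in control lungs (SD, n as for Pdgfrb). The changes ran from -0.41 (SE 0.24) to -0.20 (SE 0.24), with no adjusted p below 0.824. They shrank to between -0.16 and -0.07 with slide as a block, and the second Npnt probe gave -0.58 to -0.11. All 15 nephronectin partner and basement membrane genes lay below 0 over the 3 materials at 54 µg and 13 at 18 µg, with 0 past the test and medians of -0.17 and -0.13. Among them Itga8, the α8 chain itself, had -0.53 (SE 0.21) at 18 µg and -0.62 (SE 0.21) at 54 µg.

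Limch1, a regulator of nonmuscle myosin, and Inmt, a methyltransferase abundant in lung, had small changes. Limch1 averaged between 7.69 ± 0.21 and 7.88 ± 0.22 in the exposed groups, against 8.02 ± 0.18 in control lungs, with changes of -0.33 (SE 0.23) to -0.14 (SE 0.19). At 18 µg of NRCWE-045 all 3 lungs, at 7.83, 7.46 and 7.79, lay below the lowest control at 7.85, as 2.07% of units did, and the change there was -0.17 with slide as a block and -0.21 without replicate 2 of the group. Its second probe gave values of -0.41 to -0.09. Inmt averaged between 5.83 ± 0.30 (54 µg of NRCWE-043) and 6.22 ± 0.43 (18 µg of NRCWE-044), against 6.17 ± 0.16 in control lungs, and its change farthest from 0 was -0.34 (SE 0.18) at 54 µg of NRCWE-043. There, 4 of 5 lungs, at 5.61 to 5.76, lay below every control and 1, at 6.36, above every control. With slide as a block that change was -0.40, with an adjusted p of 0.149.

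Thy1, a surface protein that mouse T cells carry as well as fibroblasts, was the member whose exposed means all lay above the controls. Its means at 18 and 54 µg were -1.13 ± 0.18 and -1.15 ± 0.36 in NRCWE-043 lungs, -1.07 ± 0.20 and -1.03 ± 0.23 in NRCWE-044 lungs, and -1.01 ± 0.09 and -0.99 ± 0.15 in NRCWE-045 lungs, against -1.25 ± 0.11 in control lungs (SD, n as for Pdgfrb). The changes ran from 0.10 (SE 0.13) at 54 µg of NRCWE-043 to 0.25 (SE 0.13) at 54 µg of NRCWE-045, with no adjusted p below 0.774. All 3 lungs at 18 µg of NRCWE-045 lay above every control, as 3.18% of units did. T cell genes lay on the same side: 10 of 11 were above 0 over the 3 materials at 18 µg and 11 of 11 at 54 µg, with medians of 0.16 and 0.21 and 0 past the test, and their mean per array was 0.27 to 1.12 in exposed lungs and 0.33 to 0.76 in control lungs. The part of T cells in the Thy1 values was not tested.

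**Figure D2:**
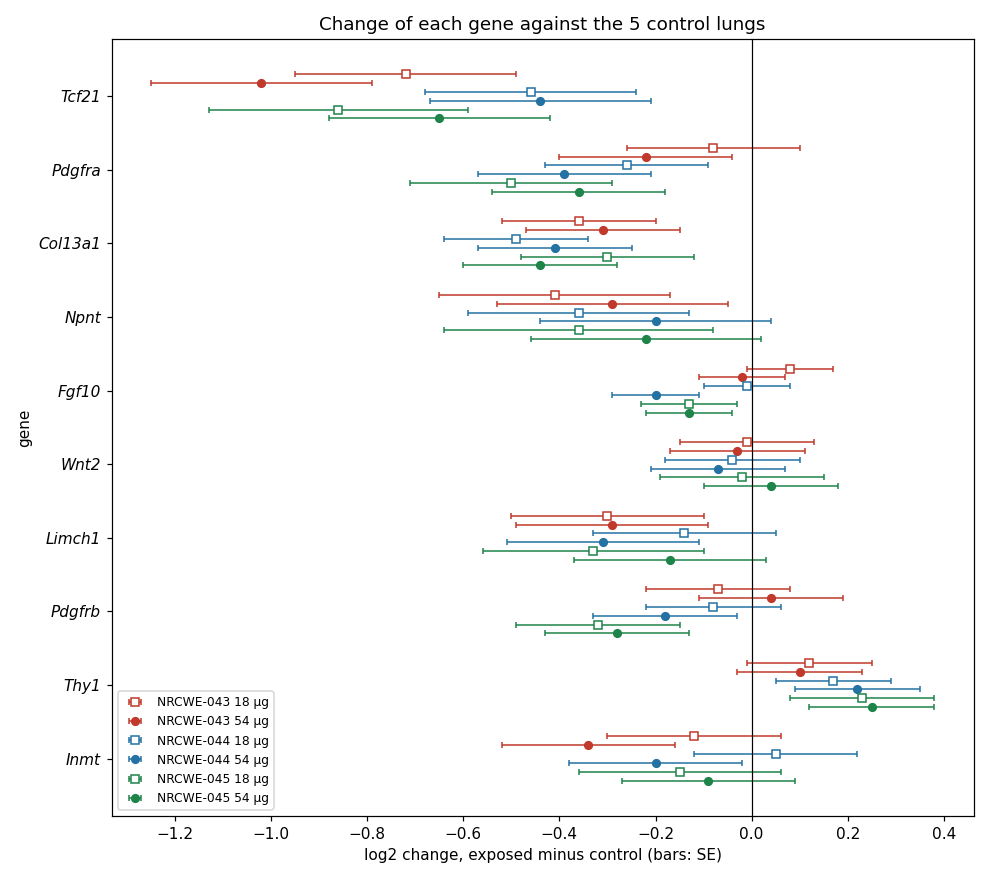
Log2 change of each of the 10 genes against the 5 control lungs (x axis; bars, SE) for each material at 18 µg (open squares) and 54 µg (filled circles). Tcf21 runs from -1.02 to -0.44 and Thy1 from 0.10 to 0.25, and none of the points passed the test over all units.

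Counted together, 8 of the 10 members lay below the controls in NRCWE-043 lungs at 18 µg, 8 in NRCWE-044 lungs and 9 in NRCWE-045 lungs, where 53.6, 49.6 and 49.3% of all units did. In the same order at 54 µg the counts were 8, 9 and 8, where 53.2, 49.9 and 49.5% of all units did. The members' median change was -0.10, -0.11 and -0.31 at 18 µg and -0.25, -0.20 and -0.19 at 54 µg, while the median over all units lay between -0.01 and 0.003. Over the 3 materials 9 of 10 lay below 0 at either dose, with a median of -0.21 at 18 µg (49.7% of all units below 0) and -0.22 at 54 µg (50.7%). With slide as a block the group medians were -0.13, -0.10 and -0.15 at 18 µg and -0.12, -0.18 and -0.14 at 54 µg, with 7, 7 and 7 and 6, 9 and 8 of 10 below 0, and the medians over the materials were -0.12 and -0.16. In the Cy5 signal alone the group medians were 0.01, -0.05 and -0.20 at 18 µg and -0.06, -0.19 and -0.14 at 54 µg. The medians over the materials were then -0.08 and -0.11. With processed signals the group medians were -0.13, -0.01 and -0.28 at 18 µg and -0.24, -0.16 and -0.11 at 54 µg. With scaling between arrays they were -0.05, -0.04 and -0.32 at 18 µg and -0.17, -0.11 and -0.17 at 54 µg. Single arrays moved these medians: at 18 µg that of NRCWE-043 was -0.02, -0.19 and -0.18 without its replicates 3, 4 and 5, and that of NRCWE-044 -0.06 without its replicate 2 and -0.07 without control replicate 4. At 54 µg that of NRCWE-043 was -0.12 and -0.16 without its replicates 2 and 5, and that of NRCWE-045 -0.29 and -0.08 without its replicates 3 and 4.

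In the order of the 7 group means the controls were highest for Tcf21, Pdgfra, Col13a1, Npnt and Limch1 and lowest for Thy1. Neighbours in these orders differed by no more than the larger of their SDs except in 1 place, the step of 0.44 for Tcf21 between 54 µg of NRCWE-044 (SD 0.28), the next highest group, and the controls (SD 0.26). Below that step the Tcf21 order was NRCWE-044 at 54 µg, NRCWE-044 at 18 µg, NRCWE-045 at 54 µg, NRCWE-043 at 18 µg, NRCWE-045 at 18 µg and NRCWE-043 at 54 µg.

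The 54 µg lungs were not separated from the 18 µg lungs. The members' median difference, 54 minus 18 µg over the 3 materials, was 0.00, with 6 of 10 below 0 (51.2% of all units) and 0 called (0% of all units). For Tcf21 the difference was -0.30 (SE 0.23) in NRCWE-043, 0.02 (SE 0.22) in NRCWE-044 and 0.21 (SE 0.27) in NRCWE-045, and over the 3 materials -0.03, with a 95% interval of -0.31 to 0.26. For Col13a1 it was 0.00 over the materials, with an interval of -0.20 to 0.19. The smallest adjusted p of any member was 0.935, for Fgf10 in NRCWE-044, at -0.19 (SE 0.09).

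The 3 materials were compared in 6 pairs at matched doses, with p-values adjusted over all units within each pair. No member was called in any pair, where 0.00341% of all units were for NRCWE-043 against NRCWE-045 and 0% for the other 2 pairs at 54 µg, and 0.0102% for NRCWE-043 against NRCWE-044 and 0% for NRCWE-044 against NRCWE-045 at 18 µg. Tcf21 had -0.58 (SE 0.23, adjusted p 0.996) for NRCWE-043 minus NRCWE-044 at 54 µg, an interval of -1.05 to -0.11, and -0.37 (SE 0.23, interval -0.84 to 0.10) for NRCWE-043 minus NRCWE-045. At 18 µg the 3 Tcf21 differences were -0.27 (SE 0.22) for NRCWE-043 minus NRCWE-044, 0.13 (SE 0.27) for NRCWE-043 minus NRCWE-045 and 0.40 (SE 0.26) for NRCWE-044 minus NRCWE-045. Pdgfra had 0.42 (SE 0.21, interval -0.01 to 0.85) and Fgf10 0.21 (SE 0.10) for NRCWE-043 minus NRCWE-045 at 18 µg, with adjusted p of 0.478 and 0.461. In that pair 126 units, 0.43% of all, were called, 122 of them lower. Plin2, the protein coat of lipid droplets and 1 of the 30 other alveolar fibroblast and lipofibroblast genes, was higher by 0.59 (SE 0.14, adjusted p 0.0492). The liver genes Alb (-2.74, SE 0.58), Serpina1a (-3.35, SE 0.67) and Apoc3 (-2.38, SE 0.56) were called lower (limma, adjusted p 0.0272, 0.0272 and 0.0419). The part of the liver gene signal in the calls of this pair was not tested. No unit of that pair was called without the 2 arrays highest in liver, fat or cardiac genes (0) or without replicate 2, 3 or 5 of NRCWE-043, 428 were without replicate 4 of NRCWE-043 and 317 without replicate 1 of NRCWE-045, and 21 were with slide as a block.

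**Figure D3:**
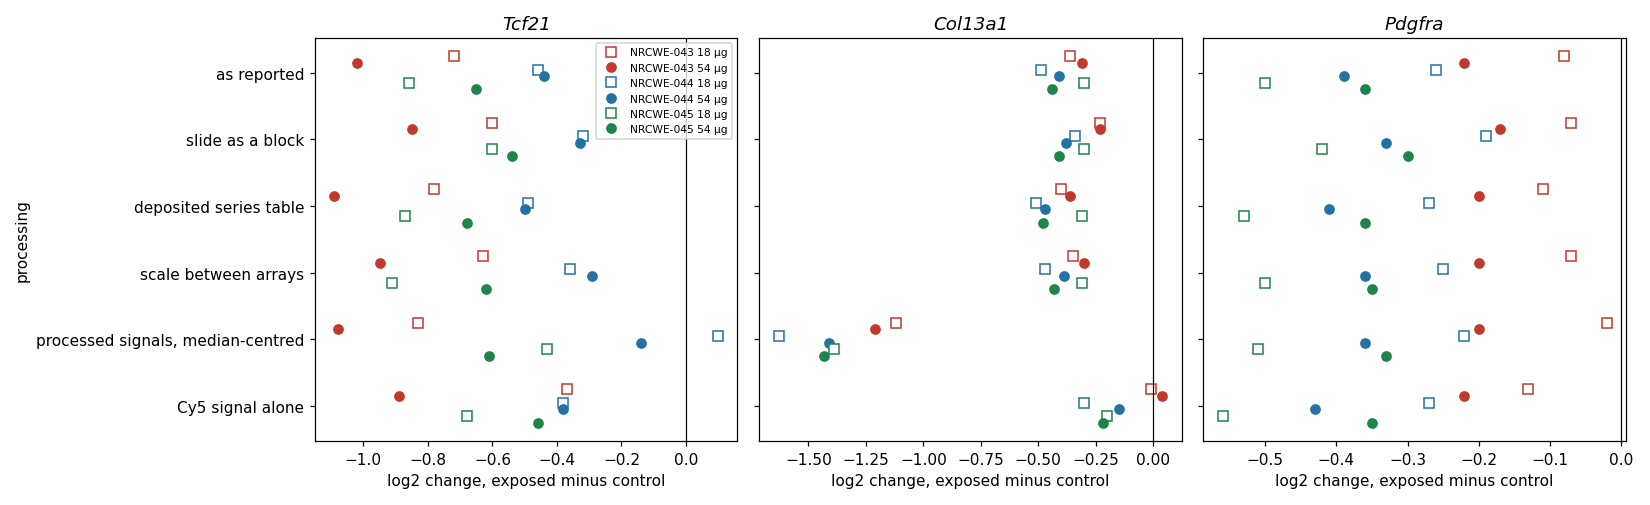
Log2 change of Tcf21, Col13a1 and Pdgfra against the controls (x axis) under 6 ways of processing the arrays (rows), by material at 18 µg (open squares) and 54 µg (filled circles). Pdgfra stays between -0.56 and -0.02, Tcf21 is above 0 in 1 case (0.10, processed signals, NRCWE-044 at 18 µg), and Col13a1 runs from -1.63 with processed signals to 0.04 with the Cy5 signal alone.

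The 30 other alveolar fibroblast and lipofibroblast genes lay on the same side as most members: 26 were below 0 over the 3 materials at 18 µg and 24 at 54 µg, with medians of -0.18 and -0.15 and 0 past the test. The 4 genes of the list with the smallest unadjusted p against the controls were Itga8, Plin2, Lpl and Pparg, and none of them passed. Itga8 lay below 0 (values above), while Plin2 had 0.20 (SE 0.10) and 0.19 (SE 0.10), Lpl, the lipase that frees fatty acids from lipoproteins, 0.10 (SE 0.21) and 0.40 (SE 0.21), and Pparg, a lipogenic transcription factor, 0.13 (SE 0.11) and 0.22 (SE 0.11). Macrophages express Plin2, Lpl and Pparg as well. Macrophage genes had medians of 0.14 at 18 µg and 0.28 at 54 µg, with 6 of 8 above 0 at each dose, and their part in these values was not tested. The part of fat cell signal in the values of this list was not tested either. Among the binding partners and relatives of TCF21, 11 tested, the medians were -0.01 and 0.00 with 0 past the test.

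Other cell types of the lung wall differed from the fibroblast lists in part. Endothelial genes had medians of -0.24 at 18 µg and -0.33 at 54 µg, with 9 and 11 of 11 below 0, pericyte genes -0.19 and -0.17, with 10 and 9 of 10, and alveolar type 1 genes -0.08 and -0.12. Adventitial fibroblast genes had medians of -0.06 and -0.02, peribronchial fibroblast genes -0.09 and -0.12, myofibroblast and scar genes 0.00 and -0.04, smooth muscle genes -0.02 and -0.05, mesothelial genes 0.11 and -0.05, and alveolar type 2 genes 0.03 and 0.02. Of the remaining lists, cardiac genes had -0.83 and -0.31, liver genes 0.74 and 0.16, fat cell genes -0.15 and -0.07, clock genes -0.05 and -0.15, and immediate early genes 0.27 and 0.20. In none of these lists did a gene pass the test against the controls (0). The clock genes differ with the hour of collection, and not all in the same direction. A median or mean over them therefore does not measure the hour. Their median was -0.43 at 18 µg and -0.70 at 54 µg of NRCWE-043. In the other 4 groups it lay between -0.11 and 0.13. Across the 34 arrays, with slide means taken off, their mean had r = 0.15 with Tcf21, 0.53 with Inmt and -0.51 with Pdgfra. The adjusted permutation p were 0.66, 0.0534 and 0.0534. For Inmt rho was 0.56 (adjusted permutation p 0.0341), and r within groups of exposure was 0.09. The part of the clock genes in the Tcf21 and Inmt values of NRCWE-043 lungs was not tested.

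**Figure D4:**
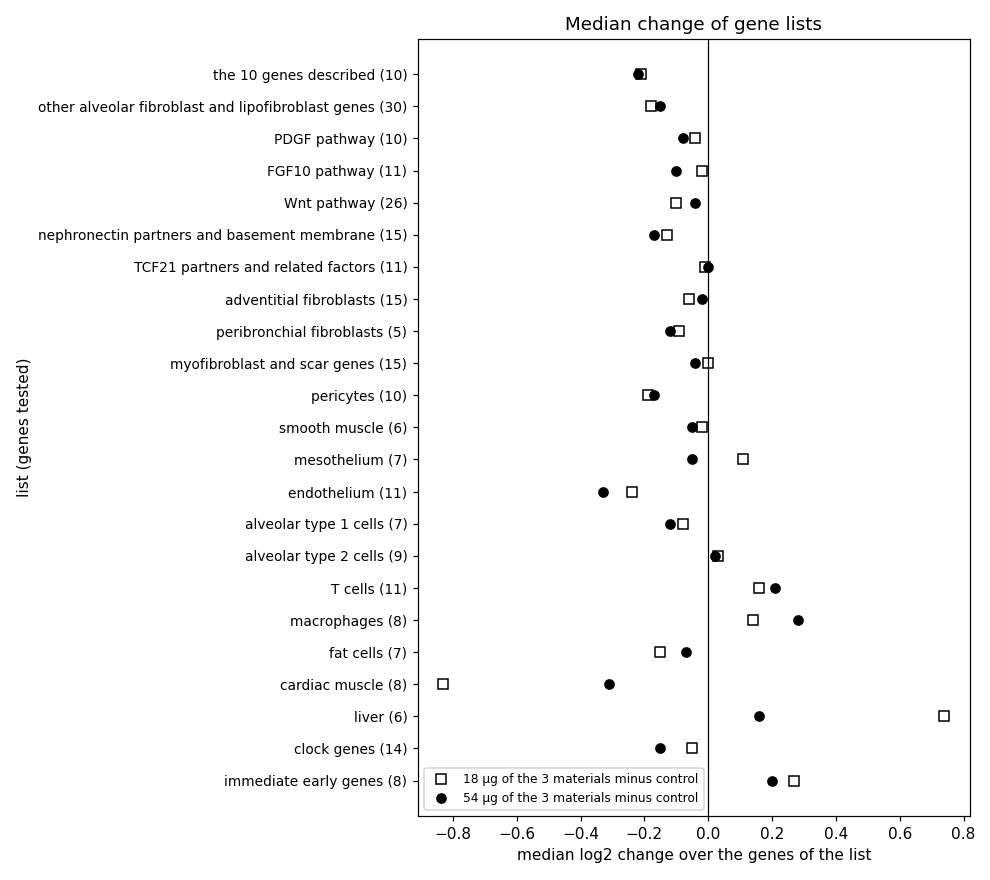
Median log2 change over the genes of each list (number tested in brackets), over the 3 materials at 18 µg (open squares) and 54 µg (filled circles) against the controls. The 10 genes described sit at -0.21 and -0.22, endothelial genes at -0.24 and -0.33, and T cell genes at 0.16 and 0.21.

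Across the 34 arrays, after each slide's mean was taken off, the 10 genes did not move as 1 block. Of their 45 pairs 32 had a positive Pearson correlation, with a median of 0.15, and 9 had a permutation p under 0.05 after adjustment over the pairs (labels permuted within slides, 100000 resamples). Pdgfra went with Fgf10 (r = 0.70, rho = 0.67, permutation p 5e-05 and 0.00014, adjusted 0.00157 and 0.00315) and with Col13a1 (r = 0.69, rho = 0.66, permutation p 7e-05 and 0.00014, adjusted 0.00157 and 0.00315). Without the 2 arrays farthest from the median on the x axis r was 0.61 and 0.57. Tcf21 went with Col13a1 at r = 0.50 and with Pdgfra at 0.46 (permutation p 0.0012 and 0.00447, adjusted 0.0141 and 0.0251). Within groups of exposure the 4 correlations were 0.72, 0.67, 0.59 and 0.56. Thy1 had r between -0.39 and 0.16 with each of the other 9 members, and Wnt2 between -0.24 and 0.31, and none of those had an adjusted p under 0.05.

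Several members had higher correlations with genes of another cell type than with the other alveolar fibroblast genes, a difference that was not tested. With the mean of the 30 other alveolar fibroblast and lipofibroblast genes r was 0.57 for Tcf21, between 0.12 and 0.22 for Pdgfra, Col13a1, Npnt, Fgf10, Limch1 and Inmt, and between -0.40 and -0.18 for Wnt2, Pdgfrb and Thy1. Of 220 member and list pairs 17 had an adjusted p under 0.05 by Pearson's r. The lists were chosen with earlier results of these data known, and the p-values do not allow for that choice. They also hold genes given below as most like a member: Cd28 for Thy1, Akap5 for Limch1, Tek for Npnt and Lamb1 for Fgf10. Thy1 went with the T cell genes (r = 0.77, rho = 0.78), Limch1 with the alveolar type 1 genes (r = 0.82, rho = 0.80) and Tcf21 with the endothelial genes (r = 0.81, rho = 0.83), each with a permutation p of 1e-05, the smallest that 100000 resamples can give, and an adjusted p of 0.000733. Without the 2 farthest arrays these were 0.74, 0.79 and 0.79, and within groups of exposure 0.73, 0.80 and 0.81. Npnt went with the alveolar type 1 genes (r = 0.73, rho = 0.64, permutation p 8e-05, adjusted 0.00283) and Tcf21 with the pericyte genes (r = 0.72, rho = 0.74, permutation p 2e-05, adjusted 0.0011). The endothelial genes also passed with Limch1 (r = 0.73, adjusted permutation p 0.00264), Npnt (0.72, 0.00283), Col13a1 (0.59, 0.0137) and Inmt (0.49, 0.0489). Nephronectin partner and basement membrane genes passed with Pdgfra (0.57, 0.0137), Fgf10 (0.57, 0.0196), Limch1 (0.56, 0.032) and Col13a1 (0.50, 0.0489). Col13a1 also passed with pericyte genes (0.53, 0.0465), as did Pdgfra (0.53, 0.0489) and Fgf10 (0.51, 0.0465) with TCF21 partners and related factors. The name of the gene set describes the list, and whether its members follow these cells was not tested. Of its 10 members, Tcf21 alone had an adjusted p under 0.05 with the 30 other listed genes by Pearson's r (permutation p 0.00377, adjusted 0.0489). By Spearman's rho none did (0.53 for Tcf21, permutation p 0.00449, adjusted 0.0549). Those 30 genes include Plin2, Lpl and Pparg, which macrophages express as well.

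**Figure D5:**
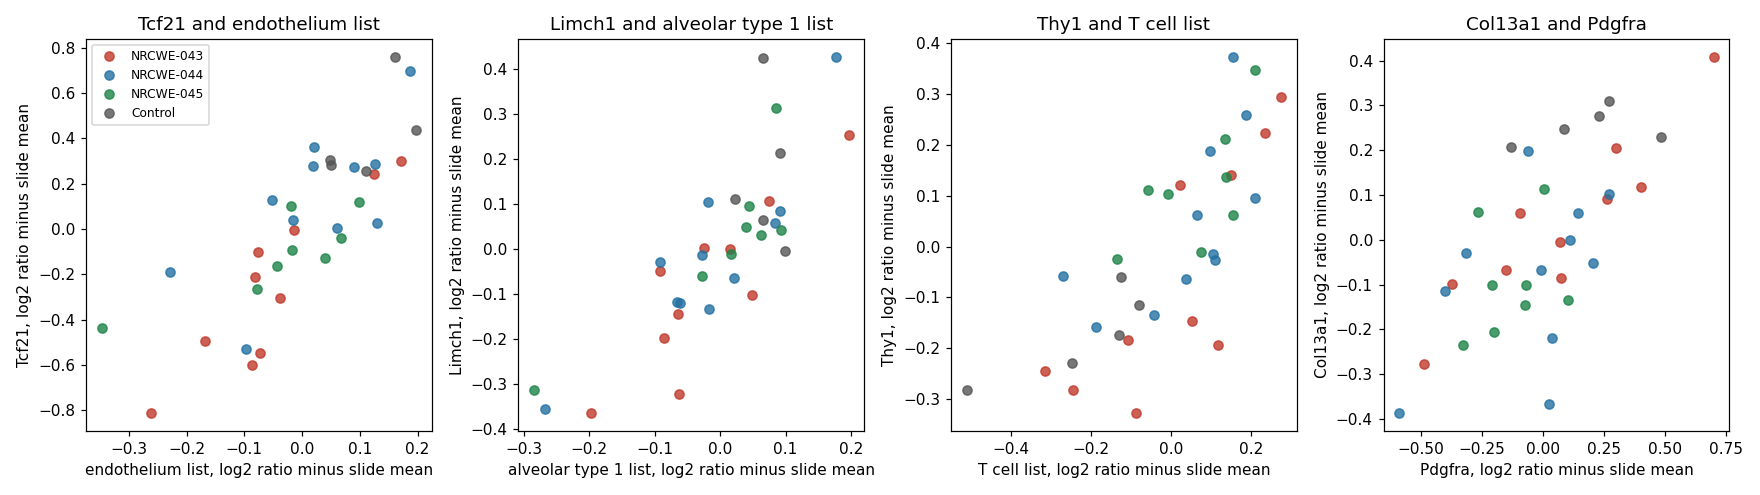
Each point is 1 array, coloured by material, with values as log2 ratio minus the mean of its slide: Tcf21 against the mean of 11 endothelial genes, Limch1 against 7 alveolar type 1 genes, Thy1 against 11 T cell genes, and Col13a1 against Pdgfra. The correlations are 0.81, 0.82, 0.77 and 0.69 over the 34 arrays.

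The named genes most like each member across the 34 arrays, by Pearson correlation after the slide means were taken off, are a description with no test. They were Hsd11b1 (0.86), Clec1a (0.86) and Fam162b (0.84) for Tcf21, Rftn2 (0.85), Mapt (0.84) and Sash1 (0.82) for Pdgfra, and Grk5 (0.80), Mapt (0.78) and Tspan18 (0.76) for Col13a1. For Fgf10 they were Lamb1 (0.80), Rftn2 (0.75) and Tmem109 (0.74), so that Pdgfra shares Mapt with Col13a1 and Rftn2 with Fgf10. They were Pros1 (0.80), Tek (0.77) and Cyp27a1 (0.77) for Npnt, Wscd1 (0.80), Dlc1 (0.80) and Akap5 (0.78) for Limch1, and Map4k4 (0.78), Adam15 (0.76) and Cxcl12 (0.74) for Pdgfrb. Thy1 was closest to Cd28 (0.85), the costimulatory receptor of T cells, then Coro1a (0.79) and Stat3 (0.79), and Inmt to Mettl7a2 (0.75), Col25a1 (0.74) and Cyp2b10 (0.74). Wnt2 had no gene above 0.64, the value for Eif4a3l1.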

How the data were processed

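Lung RNA (Cy5) and a universal mouse reference RNA (Cy3) were hybridised on 34 two-colour Agilent arrays with no dye swap, per the labels. The spot intensities were extracted by the authors with Agilent Feature Extraction 11.0.1.1, per the file headers, which also give the other columns used, the scanner software's flags for dim, saturated and outlying spots. A deposited series table of log2 values, whose scale and centring are not stated, had correlations of 0.994 to 0.998 with the ratios computed here, the same direction, and column medians of -0.0414 to -0.00406. It was used as an alternative.

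Median spot signals were background-corrected (limma 3.58.1 in R 4.3.3, normexp, offset 50) and loess-normalised within each array, with control spots at weight 0 and outlier spots left out (0.675 to 1.02% of spots, 0 saturated). Spots of a probe were averaged. RefSeq accessions gave a name to 27235 of 55681 probes, and the probe with the highest mean Cy5 signal stood for each gene. Probes well above background in Cy5 on fewer than 3 arrays were left out. A 7-group linear model with empirical Bayes moderation was fitted to 29316 units (120 with a missing value on some array, which the fit drops), with Benjamini-Hochberg adjustment at 0.05 in each of 18 comparisons, and the scripts were tested on simulated data. The plan named spot signals without saying mean or median. The number of arrays limits the precision, and p-values measure the spread between these mice. Slide, which coincides with scan day, was an alternative block, and 2 of the 6 slides hold no controls. Scaling between arrays, the Cy5 signal alone, and leaving out the 2 arrays highest in liver, fat or cardiac genes were alternatives chosen after seeing the data. Aquantile leaves log2 ratios unchanged.

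The rule that names the members uses no measured value, but members and lists were chosen with earlier results of these data known. Their counts below 0 and their medians are therefore a description with no test. All members were named. From other lists, genes past the threshold were named as changed, and at most 4 others with values, those with the smallest p over the 6 comparisons with controls. The genes most alike were the 3 with the highest correlation after the slide means were taken off. Spry4, Wnt3a, Rspo2, Twist1, Lmod1 and Cry1 did not pass the filter, and Rtkn2 and Cd68 were matched to no probe. Promoters of 8 members were used from the RefSeq table. None was used for Thy1 or Pdgfrb, which are named only. Gene coordinates are not given, since the file headers name another build than the table.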

Additional observations from a re-analysis of the deposited data

Results flagged for a closer look

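In 60 sets of 5 or 6 arrays (10 genes in 6 groups), 3 held an array whose gap to its neighbour took up more of the set's range than Dixon's 95% value allows, where chance gives about 1 in 20. Inmt was 6.36 in NRCWE-043 54 µg replicate 5, with the next lung at 5.76 (gap 0.80 of the range, limit 0.71). Pdgfrb was 1.81 in NRCWE-044 18 µg replicate 6, with the next at 1.31 (0.769, limit 0.625), and 0.84 in NRCWE-045 54 µg replicate 4, with the next at 1.16 (0.78, limit 0.71). The lung with 0.84 for Pdgfrb also had the lowest Tcf21 (3.00) and Npnt (1.84) of its group and a mean of cardiac genes of 4.54. The part of that cardiac gene signal in its values was not tested.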

How the results depend on the processing

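Against controls, no member passed the test under the alternatives run, and the smallest adjusted p (limma) was 0.144 with slide as a block, 0.157 when 1 array was left out and between 0.295 and 0.647 otherwise. Between doses and between materials none passed under the same alternatives either (another probe was not run there), with smallest values of 0.266 with slide as a block, 0.241 when 1 array was left out and between 0.334 and 0.537 otherwise. Of 80 member changes against controls, 69 kept their direction with slide as a block, 72 with processed signals, 78 with the deposited series table, 76 with scaling between arrays, 71 with the Cy5 signal alone, 78 without the 2 arrays highest in liver, fat or cardiac genes, and all 80 with Aquantile or with no filter on dim probes. The reversed values were small, but some of the shifts were not. Tcf21 at 18 µg of NRCWE-044 went from -0.46 to 0.10 with processed signals. With the Cy5 signal alone Npnt went from -0.41 to 0.02 and Limch1 from -0.30 to 0.03 at 18 µg of NRCWE-043. Col13a1 went from -0.31 to 0.04 at 54 µg of NRCWE-043. The cause was not tested.

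With slide as a block Fgf10 turned to 0.01 (NRCWE-043 54 µg), 0.03 (NRCWE-044 18 µg) and 0.02 (18 µg over materials), Wnt2 to 0.09 and 0.01 (NRCWE-043 18 and 54 µg), 0.03 (NRCWE-044 18 µg), 0.02 (NRCWE-045 18 µg), 0.05 and 0.03 (18 and 54 µg over materials), and Inmt to -0.10 (NRCWE-044 18 µg) and 0.00 (NRCWE-045 18 µg). With processed signals Fgf10 turned to 0.01 (NRCWE-043 54 µg), 0.05 (NRCWE-044 18 µg) and 0.01 (18 µg over materials), Npnt to 0.04 (NRCWE-044 54 µg), Wnt2 to 0.02 and -0.01 (NRCWE-045 18 and 54 µg), Pdgfrb to 0.01 (NRCWE-043 18 µg) and Tcf21 to 0.10 (NRCWE-044 18 µg). The deposited series table gave 0.02 for Fgf10 (NRCWE-044 18 µg) and 0.01 for Wnt2 (NRCWE-045 18 µg). Scaling gave 0.01 and 0.02 for Inmt (NRCWE-044 54 µg, NRCWE-043 18 µg), 0.00 for Wnt2 (NRCWE-043 18 µg) and 0.04 for Limch1 (NRCWE-044 18 µg). The Cy5 signal alone gave 0.04 for Col13a1 (NRCWE-043 54 µg), 0.02 for Npnt and 0.03 for Limch1 (NRCWE-043 18 µg), -0.06 for Inmt (NRCWE-044 18 µg), 0.12, 0.08, 0.03, 0.03 and 0.03 for Wnt2 (NRCWE-043 18 and 54 µg, NRCWE-044 18 µg, 18 and 54 µg over materials), and a members' median of -0.06 at 54 µg of NRCWE-043. Without the 2 arrays, Wnt2 had 0.17 (NRCWE-045 18 µg) and 0.04 (18 µg over materials).

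Leaving out 1 array at a time, Fgf10 ran from -0.07 to 0.03 (NRCWE-043 54 µg), -0.06 to 0.02 (NRCWE-044 18 µg) and -0.07 to 0.01 (18 µg over materials). Wnt2 ran from -0.11 to 0.06 and -0.10 to 0.03 (NRCWE-043 18 and 54 µg), -0.12 to 0.02 (NRCWE-044 18 µg), -0.13 to 0.17 and -0.03 to 0.12 (NRCWE-045 18 and 54 µg), -0.07 to 0.04 and -0.06 to 0.04 (18 and 54 µg over materials). Pdgfrb ran from -0.19 to 0.04 and -0.05 to 0.17 (NRCWE-043 18 and 54 µg), Npnt from -0.36 to 0.01 (NRCWE-045 54 µg), Inmt from -0.18 to 0.02 (NRCWE-045 54 µg) and -0.09 to 0.13 (NRCWE-044 18 µg), and Pdgfra from -0.15 to 0.08 (NRCWE-043 18 µg).

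Counts of called units depended on the processing. Against controls, 1 unit was called with slide as a block at 54 µg of NRCWE-044 and of NRCWE-045, 1 with the Cy5 signal alone at 54 µg of NRCWE-045, and 1 without the 2 arrays at 18 µg of NRCWE-045. Leaving out 1 array gave 0 to 3 at 54 µg of NRCWE-043 (3 without its replicate 4), 0 to 13 at 54 µg of NRCWE-044 (13 without its replicate 4), 0 to 110 at 18 µg of NRCWE-045 (86, 1 and 110 without its replicates 1, 2 and 3) and 0 to 6 at 54 µg over materials (6 without NRCWE-043 54 µg replicate 4). For 54 against 18 µg it gave 0 to 3 in NRCWE-044 (3 without 54 µg replicate 4) and 0 to 21 in NRCWE-045 (21 without 18 µg replicate 3). NRCWE-043 against NRCWE-044 had 1 with slide as a block or scaling at 54 µg, against 0 as reported, and at 18 µg 0 with slide, 1 with processed signals or the series table, 5 with scaling and 0 to 34 when 1 array was left out (34 without NRCWE-044 replicate 1), against 3 as reported. NRCWE-043 against NRCWE-045 at 54 µg had 0 with processed signals, 2 without the 2 arrays and 0 to 3 when 1 was left out (3 without NRCWE-045 replicate 4), against 1. At 18 µg it had 21 with slide, 3 with processed signals, 12 with scaling, 0 with the Cy5 signal alone or without the 2 arrays, and 0 to 428 when 1 was left out (428 without NRCWE-043 replicate 4, 317 and 0 without NRCWE-045 replicates 1 and 2), against 126. NRCWE-044 against NRCWE-045 had 1 with processed signals at 54 µg, and at 18 µg 1 without the 2 arrays and 0 to 133 when 1 was left out (80, 1 and 133 without NRCWE-045 replicates 1, 2 and 3), against 0.

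Tcf21, Col13a1 and Wnt2 were near background in Cy3, which limits the size of their ratios. No paired analysis was possible because the labels give the mice of different groups no shared number.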
